A study of Homo sapiens with 4 samples.

Results

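Proteasome subunit genes were followed in PANC-1, an established human pancreatic ductal adenocarcinoma cell line, after an RNA immunoprecipitation (IP) with an antibody against NSUN2, an enzyme that places 5-methylcytosine on RNA. The genes were the protein-coding rows of the deposited gene table whose symbol is PSM, a letter from A to G, and a number. This rule uses names only and found 45 of 24483 genes, with 16 PSMA and PSMB genes called core here and 29 PSMC to PSMG genes called regulatory. PSMA8, PSMB10 and PSMB11, which RefSeq also lists, were not analysed here at the gene level. Wild-type cells had received 30 mM sodium lactate, or the ddH2O vehicle, for 24 h before lysis in polysome lysis buffer. Input RNA was taken before the 4 h immunoprecipitation on protein A/G beads, and SMART-Seq v4, a kit that amplifies full-length cDNA from little RNA, was used for every library. Both treatments gave 1 input and 1 IP library, so the 4 groups have 1 library each. Each difference is therefore a description without a replicate check, and no test was run. Where values of all libraries are listed, the order is input then IP for vehicle cells, followed by input then IP for lactate cells. A library made with a control antibody was not analysed here, so RNA held by the beads themselves cannot be told apart from RNA held by NSUN2.

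The proteasome is the protease of the ubiquitin system. Its core particle is a barrel in which outer rings of alpha subunits (PSMA) control entry and inner rings of beta subunits (PSMB) cut proteins, PSMB5, PSMB6 and PSMB7 being the catalytic ones and PSMB8 to PSMB10 their immune counterparts. A regulatory particle caps the barrel: its base holds unfolding ATPases (PSMC) with the large scaffold subunits PSMD1 and PSMD2, its lid (most other PSMD) holds the deubiquitinating enzyme PSMD14, and chaperones (PSMG1 to PSMG4, PSMD5, PSMD9 and PSMD10) assist assembly. The transcription factor NFE2L1 is known to raise subunit genes together, through antioxidant response elements in their promoters.

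The depth behind these values was uneven. Library totals recovered from the gene table were 11175432 to 17626197 reads, but nuclear genes held only 31.3%, 30.3%, 20.9% and 13.9% of them in the stated order. Of 7 ductal and PANC-1 markers, KRT18, KRT8, KRT19 and VIM were above FPKM 1 (the deposited unit, fragments scaled by gene length and library total) in all 4 libraries, the lowest being KRT19 at 1.61, while CDH1 and KRT7 were below 1 throughout. The summed level of the list was 387, 520, 237 and 176, and its part in the comparisons was not tested. Only 3 of 8 immune markers and 3 of 5 neuron and Schwann cell markers had a deposited gene value, and none of these reached FPKM 1. Of 7 fibroblast and endothelial markers 6 had a value and 1 to 2 reached FPKM 1, with a summed FPKM of 1.78 to 3.06. Members had 32592, 31268, 11841 and 13719 reads. As shares of nuclear reads these were 0.591% (95% Wilson interval 0.585 to 0.598), 0.758% (0.750 to 0.766), 0.506% (0.497 to 0.515) and 0.649% (0.639 to 0.660). As shares of all reads they were 0.185%, 0.230%, 0.106% and 0.0903%. The share was lower in lactate than in vehicle RNA on both bases, whereas the lactate IP stood above its input as a share of nuclear reads and under it as a share of all reads. Since molecules were not tagged before amplification, all intervals describe counting error only. They leave out that recovered reads, whose nuclear part is the base of the nuclear shares, summed to 97.3% to 99.7% of the library totals. In bulk RNA, fewer cells and less RNA per cell cannot be told apart.

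Members spanned a wide range of FPKM levels. Their medians were 7.04, 5.63, 4.65 and 3.04, and 39, 41, 34 and 33 of the 45 reached FPKM 1. PSMA7, an alpha subunit, was highest in the inputs, with FPKM 88.5 for vehicle and 50.3 for lactate cells, and 92.7 and 32.5 in their IPs. PSMC4, a base ATPase, led both IPs, with 127 and 39.3 against 79.3 and 38.9 in the inputs. By role, beta ring genes ran from FPKM 8.39 for PSMB2 to 37.4 for PSMB4 in the vehicle input. Alpha ring genes ran from 0.0609 to 88.5 there. The immune subunits PSMB8 and PSMB9 stood at 1.08 and 1.48, well below the catalytic PSMB5 at 17.6, PSMB6 at 14.3 and PSMB7 at 17.6. The activator genes ranged from 1.95 for PSME4 to 24.0 for PSME1.

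**Figure D1:**
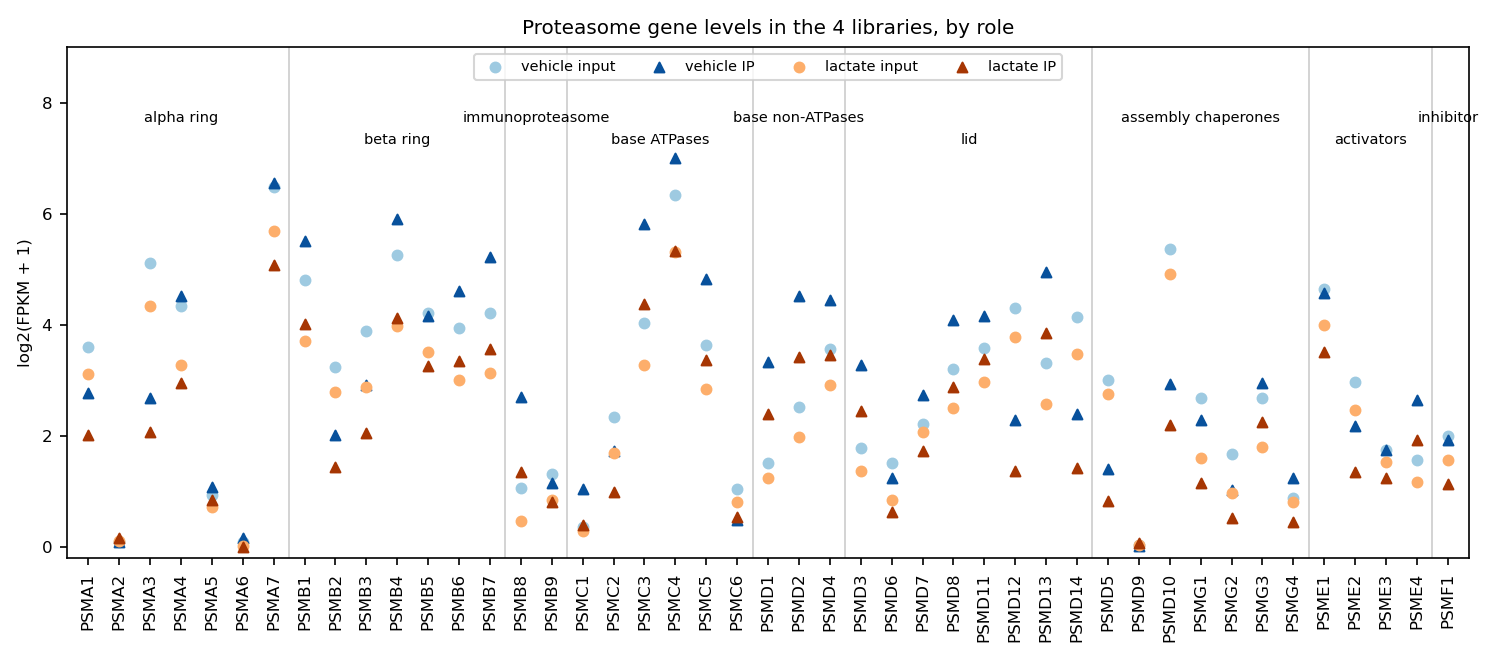
Each of the 45 genes is drawn at log2(FPKM + 1) in each of the 4 libraries, circles for inputs and triangles for IPs, ordered by role. PSMA7 and PSMC4 are at the top, and PSMA2, PSMA6 and PSMD9 lie near 0 in every library.

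In all, 6 members stood under FPKM 1 in the vehicle input: PSMA2, PSMA5, PSMA6, PSMC1, PSMD9 and PSMG4. PSMA6, an essential alpha subunit, had 7, 11, 1 and 0 reads, where a count of 0 allows up to 3. Its pseudogene PSMA6P1 was higher in every library, with FPKM 2.68, 6.84, 2.05 and 2.31. PSMC1, a base ATPase, was at 0.287, 1.07, 0.219 and 0.322, and its pseudogene PSMC1P1 at 9.50, 36.0, 5.22 and 8.68. Of 18 pseudogenes in the table named for 9 members, 4 reached FPKM 1 in any library (PSMA6P1, PSMC1P1, PSME2P1 and PSME2P2). How reads shared by a gene and its copy were assigned is not stated in these sources. The levels of PSMA6, PSMC1 and PSME2 are therefore uncertain.

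The peak tables gave signal at some of these genes. At an exon peak of PSMA6 (GRCh38 chr14:35317191-35317445) the authors' deposited table of the IP libraries gave normalized read densities of 98.2 in the vehicle IP and 42.4 in the lactate IP. For a PSMA2 3′ UTR peak (chr7:42917442-42917721) that table gave 83.3 and 47.6, beside 7 and 15 reads for the whole gene in the gene table, and for a PSMD9 3′ UTR peak (chr12:121916358-121916722) 24.2 and 16.8, beside 2 and 7 reads. Normalized densities and read counts are unlike measures, so their sizes cannot be compared. Over input these vehicle peaks were 1.34-fold (PSMA6), 2.02-fold (PSMA2) and 2.08-fold (PSMD9) in the authors' deposited table. Peak signal thus stood beside few gene-level reads for PSMA2, PSMA6 and PSMD9, and why was not tested. Other peaks inside the PSMA2 and PSMA6 loci carried the identifiers ENSG00000256646 and ENSG00000258790 in the authors' deposited table, protein-coding genes given there without a symbol. Members below FPKM 1 in both libraries of a comparison were left out of it.

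Comparing the inputs asks how 24 h of lactate moved the levels of these RNAs. Values are given as the log2 of one FPKM + 1 over the other, a scale that shrinks differences of low genes. Most proteasome genes were lower in the lactate input, and the core more than the rest: the median over 39 members was −0.65, over 13 core members −0.80 and over 26 regulatory members −0.62, against −0.43 over all 6766 genes tested. Relative to the median gene, 32 of 39 members were lower, including 13 of 13 core members, where 50% of all genes are. At least 2-fold lower were 7 members, against 6.46% of all genes and 3.08% of nuclear protein-coding genes, and 0 were 2-fold higher (1.76% and 0.036%). When the libraries were rescaled so that the median gene or the nuclear protein-coding sum matched, 0 members were past 2-fold, while the core stayed below the regulatory genes by 0.26 and 0.28. Relative to the median gene, 181 of the 6766 genes were 2-fold higher and 92 lower, and 0 members were past 2-fold. The nuclear share of reads, also lower in the lactate input, moves with these ratios, and its part in them was not tested.

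The beta ring had a median of −1.01, the lowest of any role on this scale, with all 7 members below the median gene. Without a pseudocount its median was −1.12, beside −1.18 for the immune subunits and −1.12 for the assembly chaperones. PSMB4, a non-catalytic beta subunit, went from FPKM 37.4 to 14.7 and had the lowest log2 ratio of FPKM + 1 (−1.29). Without a pseudocount this was 2.55-fold lower (95% counting interval −1.52 to −1.18 on the log2 scale), while PSMB8 at 2.79-fold and PSMG1 at 2.64-fold were lower still on fewer reads. PSMB1, also non-catalytic, went from 26.9 to 12.1, and the catalytic PSMB7, the trypsin-like subunit, from 17.6 to 7.76, each at a log2 ratio of −1.09. The other catalytic subunits were lower by less, PSMB6 at −0.92 (14.3 to 7.05) and PSMB5 at −0.71 (17.6 to 10.3). PSMB2 was the exception in the ring at −0.44, next to the median gene. The other members at −1 or below were PSMA4 at −1.07, PSMG1 (an assembly chaperone) at −1.07, PSMB3 at −1.01 and PSMC4 at −1.01. At the other end, PSMD7, a lid subunit, went from 3.65 to 3.18 (−0.16), PSME3, a nuclear activator, from 2.36 to 1.89 (−0.21), and PSMC6, a base ATPase, from 1.05 to 0.754 (−0.23). PSMD14 was near the members' median at −0.66. The immune subunits depended on the pseudocount. PSMB8, on 66 and 15 reads, was at −0.58 with it and −1.48 without it (interval −2.40 to −0.66), and PSMB9, on 87 and 30 reads, at −0.46 and −0.88 (−1.53 to −0.27).

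**Figure D2:**
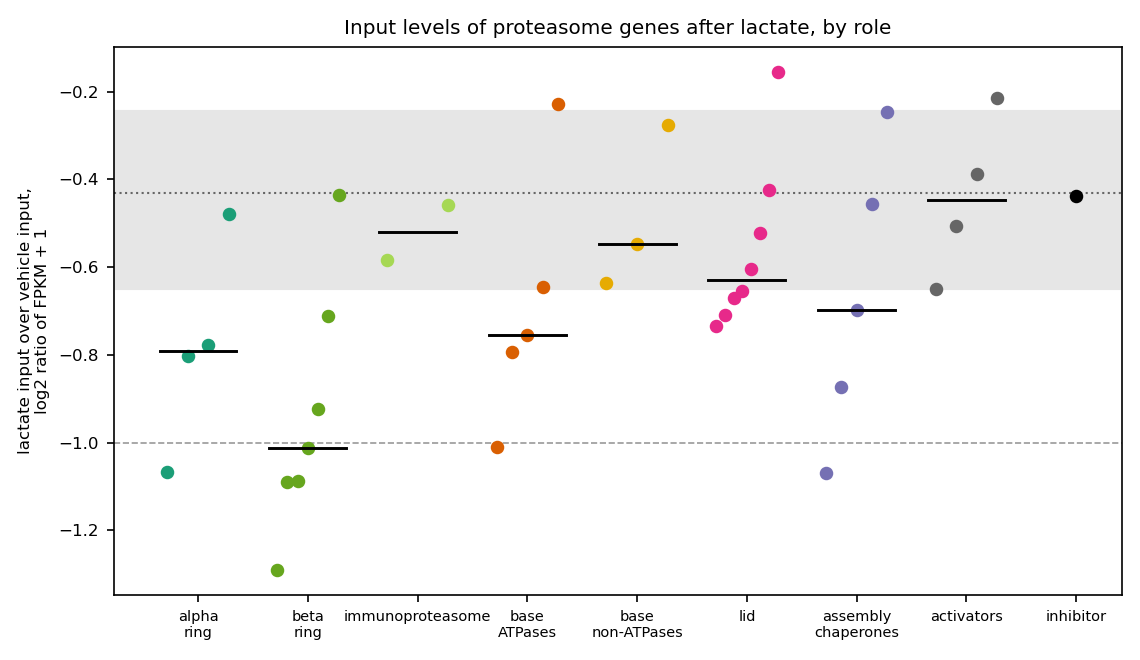
Each point is a member's log2 ratio of FPKM + 1, lactate input over vehicle input, grouped by role, with bars at the medians of roles with more than 1 tested member. The dotted line is the median over all genes (−0.43), the grey band their quartiles (−0.65 to −0.24) and the dashed line a 2-fold lower level; the beta ring sits lowest on this scale, at a median of −1.01.

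Gene length and level moved with these ratios. Across members, Spearman's rho between the recovered gene length and the log2 ratio was 0.53 (n = 39 genes, which are not independent replicates), and across nuclear protein-coding genes 0.23 (n = 5549). The 14 members of up to 3000 bp had a median of −0.90, against −0.56 for the 1444 protein-coding genes of that length. At FPKM of 15 or more in the vehicle input the 13 members had a median of −0.78 and the 766 protein-coding genes −0.63. In the range 5 to 15 the medians were −0.71 and −0.51, and under 5 they were −0.44 and −0.36. Members over 3000 and up to 6000 bp stood at −0.51 beside −0.44 for protein-coding genes, and longer ones at −0.64 beside −0.37. Members were thus lower than protein-coding genes in every class of length and of level. What length and level contribute to the difference between core and regulatory genes was not tested.

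Promoters were read because many members moved together and because the elements bound by NFE2L1 are known in proteasome promoters. RefSeq promoter windows of GRCh38.p14, from 250 bases before to 50 bases after the start, were found for 39 of 45 members, 8 of which have several starts and so several windows; PSMA7, PSMB1, PSMB6, PSMB7, PSMD4 and PSMG3 had none. The core of the antioxidant response element, TGACNNNGC on either strand, was in 15 of 39 members (38.5%) against 16.1% of 27305 genes and 19.1% of the 11564 protein-coding genes of the table with a window. Counted by window, it was in 15 of 48 windows of members (31.2%), 13.3% of all 35116 windows and 14.2% of those of the protein-coding genes of the table. By class it was in 3 of 12 core and 12 of 27 regulatory members (44.4%). The stretches shown are those before the start of their window in members past 2-fold in at least 1 comparison; for PSMA4 and PSMC5 that start lies downstream of the gene's outermost RefSeq start, so the stretch is inside the gene's full interval. Each is on the gene's own strand, with the match in capitals and 10 bases on each side. GTCA at the end of the capitals marks a match on the opposite strand.
PSMA4: gtgggcacgaTGACTCTGCaccgcctcct
PSMB3: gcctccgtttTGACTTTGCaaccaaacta
PSMC5: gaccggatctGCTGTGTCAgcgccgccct
PSMD3: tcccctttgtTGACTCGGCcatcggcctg
PSMD5: tggctacagtTGACACGGCcctaacggag
PSMD12: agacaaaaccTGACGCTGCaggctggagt
PSME2: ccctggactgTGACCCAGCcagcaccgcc
PSME4: cccggcggctGCAGCGTCAccagcagagc
PSMG1: gcccagggcaTGACAGCGCgggcgggcgg
They lie at chr15:78540650-78540678 (PSMA4), chr17:38752627-38752655 (PSMB3), chr17:63827654-63827682 (PSMC5), chr17:39980760-39980788 (PSMD3), chr9:120843038-120843066 (PSMD5), chr17:67366724-67366752 (PSMD12), chr14:24146767-24146795 (PSME2), chr2:53971009-53971037 (PSME4) and chr21:39183616-39183644 (PSMG1). PSMD5, PSMD12, PSME2, PSME4 and PSMG1 are on the minus strand. Members with the match had a median input ratio of −0.59 (n = 14) and those without it −0.60 (n = 19). At least 2-fold lower were 4 of those 14 and 1 of those 19, against 6.46% of all genes. These counts are small, and a relation with the match was not tested. A match describes these letters only.

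Enrichment in the vehicle IP asks which of these RNAs the NSUN2 antibody pulled down. Proteasome genes were spread widely, with PSMD2 at the enriched end and PSMD10, at a log2 ratio of −2.44, at the other. At least 2-fold higher in the IP were 8 of 42 members (27.6% of all 9099 genes and 26% of protein-coding ones) and at least 2-fold lower were 6 (15.3% and 14.7%). The median was 0.17 for members, 0.11 for core and 0.31 for regulatory genes, and 0.44 for all genes. This order against all genes turned with the filter, as members stood 0.25 above the median gene when only genes at FPKM of at least 5 were kept. Rescaling by the median ratio gave 5 higher and 9 lower members, and rescaling to equal coding sums 11 and 5. The shares of all genes under these rescalings were not calculated. Relative to the median gene, 6 members were 2-fold higher and 11 lower, against 1124 and 2172 of the 9099 genes.

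Subunits of the base were prominent at the enriched end, with PSMD2 first on the scale of FPKM + 1 and the immune PSMB8 first without a pseudocount. PSMD2, the scaffold that docks ubiquitin receptors (ENSG00000175166, chr3:184299241-184309050), had FPKM 4.74, 21.9, 2.92 and 9.68. Both IPs were above both inputs. Its enrichment without a pseudocount was 4.63-fold in vehicle cells (95% counting interval 2.05 to 2.37 on the log2 scale) and 3.31-fold in lactate cells (1.48 to 1.98). PSMD1, its partner scaffold (ENSG00000173692), was at 1.85, 9.10, 1.35 and 4.23, and was 4.92-fold (2.16 to 2.44) and 3.13-fold (1.44 to 1.85) enriched. PSMC3, a base ATPase, was at 15.4, 54.9, 8.69 and 19.8. The 3 base non-ATPases had a median log2 enrichment of 1.83 and the 6 ATPases 0.68. Within the ATPases the values ran from 1.77 for PSMC3 and 1.20 for PSMC5 to −0.55 for PSMC6 and −0.61 for PSMC2. In the lid, PSMD13 (1.64) and PSMD3 (1.49) stood opposite PSMD14 (−1.73) and PSMD12 (−2.02).

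The depleted end held subunits of several roles. PSMD10, an assembly chaperone also known as gankyrin (ENSG00000101843, chrX:108084207-108091542), had FPKM 40.4, 6.64, 29.2 and 3.58, both IPs far below both inputs. It ranked 3 among the members in both inputs and was 6.09-fold lower in the vehicle IP (95% counting interval −2.82 to −2.40). PSMA3, an alpha subunit, was at 33.5, 5.39, 19.1 and 3.18, and PSMD12, a lid subunit, at 18.8, 3.88, 12.8 and 1.59, both far lower in each IP than in its input. PSMD14, the deubiquitinating enzyme of the lid, was at 16.5, 4.28, 10.1 and 1.68. No assembly chaperone was above the median gene in the vehicle comparison, and their median was −0.52 over 6 tested. Alpha ring genes were also all below it (5 tested, median 0.07), while 4 of 7 beta ring genes were above.

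Catalytic subunits differed from each other in the vehicle IP. PSMB7 was just under the 2-fold line at 0.997 (FPKM 17.6 to 36.1), PSMB6 at 0.68 (14.3 to 23.5) and PSMB5 at −0.05 (17.6 to 16.9). The immune PSMB8 was at 1.64, from 66 to 260 reads, or 5.10-fold without a pseudocount, whereas PSMB9 was at −0.15. PSME4, an activator of the core, was the other member past 2-fold at 1.08, with FPKM 1.95 and 5.24.

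In lactate cells the same comparison, which shares no library with the first, gave nearly the same order of genes. Over the 35 members tested in both, Spearman's rho between the enrichments was 0.97 and Pearson's r 0.98, and over 5829 nuclear protein-coding genes Spearman's rho was 0.93 (genes are not independent replicates). At least 2-fold higher in the lactate IP were 5 of 35 members (16% of all 7170 genes and 13.7% of protein-coding ones) and at least 2-fold lower were 8 (23.3% and 22.2%). PSMD2 (1.44), PSMD13 (1.28), PSMD1 (1.15), PSMC3 (1.11) and PSMD3 (1.08) were past 2-fold in both conditions. PSMD10 (−2.72), PSMD12 (−2.41), PSMA3 (−2.27), PSMD14 (−2.05), PSMD5 (−1.93) and PSMB2 (−1.36) were 2-fold lower in both. PSMB8, PSMC5 and PSME4 were past 2-fold in vehicle cells and at 0.87, 0.53 and 0.75 in lactate cells on this scale. Without a pseudocount PSMB8 was 3.97-fold (interval 1.18 to 2.89) and PSME4 2.22-fold (0.76 to 1.55) higher in the lactate IP too, and PSMC5 1.51-fold. Of the other members, PSMA1 and PSME2 reached −1.10 and −1.11 in lactate cells only. Among catalytic subunits the values were 0.43 for PSMB7, 0.33 for PSMB6 and −0.25 for PSMB5. The median was −0.25 for members, −0.28 for core, 0.01 for regulatory and −0.10 for all genes. Here too the filter mattered: at FPKM of at least 5 the members' median was 0.63 above that of all genes, and with no minimum the core was 0.20 above the regulatory genes. Rescaling to equal coding sums turned 5 higher and 8 lower members into 15 and 5. The share of all genes under that rescaling was not calculated. Relative to the median gene the member counts were 5 and 8, against 1381 and 1472 of the 7170 genes.

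**Figure D3:**
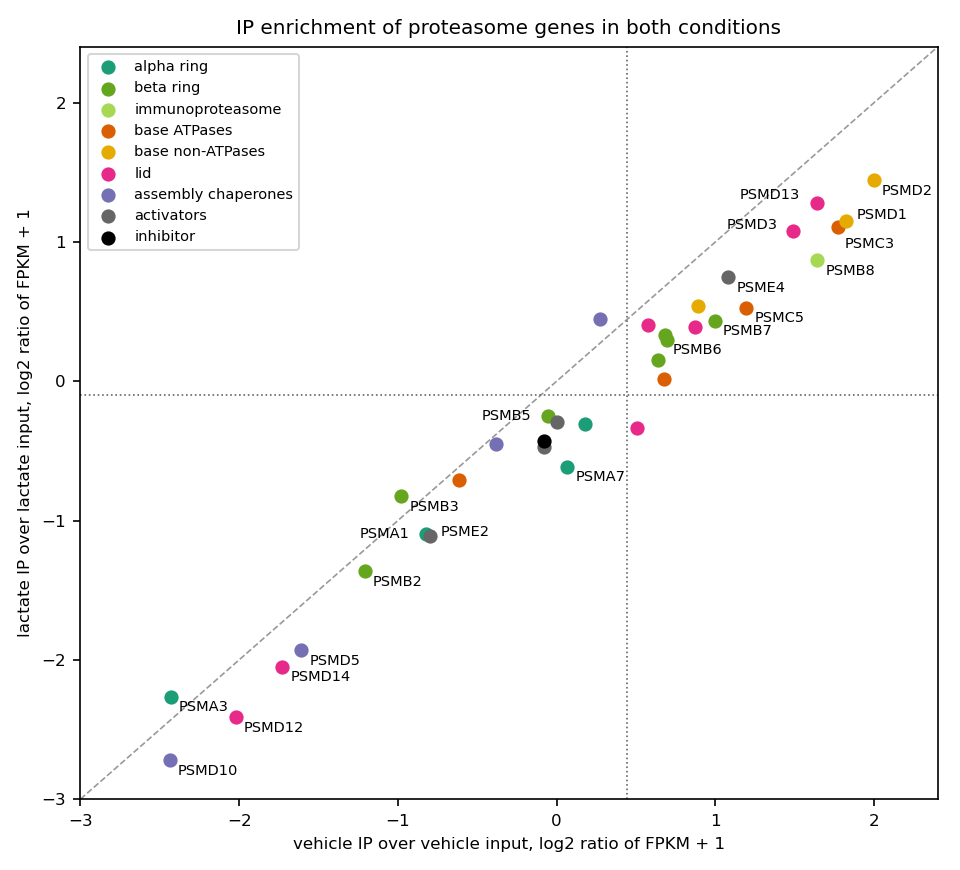
Each point is 1 of 35 members tested in both conditions, with its log2 ratio of FPKM + 1, IP over input, in vehicle cells (horizontal) and lactate cells (vertical), coloured by role. The dashed line marks equal values and the dotted lines the medians over all genes (0.44 and −0.10); PSMD2 is at the upper right and PSMD10, PSMD12 and PSMA3 at the lower left.

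Subtracting the enrichments asks whether lactate changed the pull-down of these RNAs. No member was past 2-fold in either direction (0 of 42, against 3.04% of all 9445 genes higher and 9.56% lower, and 0.27% and 5.08% of protein-coding ones), though 3 were on recovered reads, which shrink low genes less. The members' median of −0.35 was next to the −0.36 of all genes, with core at −0.31 and regulatory at −0.35. PSMD7, a lid subunit, was lowest at −0.84: its FPKM was 3.65, 5.63, 3.18 and 2.32. It was thus higher in the IP in vehicle cells and lower in lactate cells, as was the median gene (0.44 and −0.10). Relative to the median gene PSMD7 was at 0.07 and −0.24. Without a pseudocount the 95% counting interval of its change was −1.58 to −0.58. PSMB8 (−0.77) and PSMG4 (−0.72) followed, with intervals of −1.25 to 0.53 and −2.30 to −1.17. PSMG4, at FPKM up to 1.36, is a gene whose difference the pseudocount shrinks. It also reached FPKM 1 only in the vehicle IP, which favours a negative change. PSMC6 was highest at 0.28, followed by PSMG2, an assembly chaperone, at 0.21 and PSMG3 at 0.18, each with a counting interval that spans 0. Without a pseudocount the value of PSMG2 was −0.033. Base ATPases had the lowest median of any role with over 1 gene, −0.61 over 6 genes and −0.66 without a pseudocount. Of these, PSMC1 reached FPKM 1 only in the vehicle IP (1.07), which favours a negative change. PSMC6 reached it only in the vehicle input (1.05), which favours a positive one. PSMC3, PSMC4 and PSMC5 lay between −0.67 and −0.66. For the catalytic subunits the changes were −0.56 for PSMB7, −0.35 for PSMB6 and −0.20 for PSMB5, and for PSMD14 −0.32.

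Peaks of each IP against its own input, in the authors' deposited table, place the signal along the genes. The vehicle list held 209 peaks annotated to 37 members and the lactate list 104 peaks in 31. Only 118 and 57 of these have q under 0.05 in the authors' deposited table, in 34 and 23 members, so the lists hold many weak peaks. Among genes tested in the matching enrichment, 34 of 42 members had a vehicle peak (90.3% of protein-coding genes) and 24 of 35 a lactate peak (79%). A peak of at least 5-fold was in 12 of 42 (56.8%) and 10 of 35 (41.5%), both member shares being the lower. With intron peaks left out, the shares lay closer. A vehicle peak was then in 81.0% of members and 83.5% of protein-coding genes, a lactate peak in 62.9% and 66.9%. These differences were not tested. PSMA3, PSMB3, PSMD10, PSME1, PSME2 and PSMG1 had no peak in either list, and none of the 6 was enriched past 2-fold in either IP. Introns held 107 of the 209 vehicle peaks (51.2%) and 52 of the 104 lactate peaks, against 61.2% and 61.5% over protein-coding genes.

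By fold over input, the strongest exon and UTR peaks lay in PSME4 and PSMD2. By q in the authors' deposited table for vehicle cells the order differed, with a PSMD13 exon peak first (q = 1.63e-257). In the authors' deposited table a PSME4 peak annotated to a 3′ UTR (chr2:53901170-53901724) was 37.6-fold over input in vehicle cells (q = 4.33e-94), and the matching lactate peak 14.2-fold (q = 1.19e-26). It lies 37378 bases before the RefSeq end of the gene, on the minus strand. Its normalized density in the vehicle IP was 43.8, against 88.1 at a 3.39-fold PSME4 peak near the gene's end. A neighbouring PSME4 peak (chr2:53899763-53900200) was 19.3-fold and 8.17-fold in the 2 lists of the authors' deposited table. PSMD2 had its main peak in exons (chr3:184305639-184306567), 23.7-fold in vehicle and 16.9-fold in lactate cells per the authors' deposited table, 2947 bases before the gene's end. A further PSMD2 peak near the gene's end was at 4.73-fold and 5.10-fold there. An exon near the start of PSMC3 held an 8.62-fold vehicle and a 5.85-fold lactate peak in the authors' deposited table. The gene-level enrichment of PSMD2, PSME4 and PSMC3 was thus uneven along each gene.

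Intron peaks were concentrated in few members. PSMA1 alone had 37 intron peaks among its 39 in the vehicle list and 20 of 20 in the lactate list, up to 17.4-fold (chr11:14584488-14584917) in the authors' deposited table. PSMA1 as a gene was lower in both IPs, at −0.82 and −1.10. PSMD14 had 14 intron peaks of 15 in vehicle and 5 of 6 in lactate cells, while its gene-level enrichment was −1.73 and −2.05. For PSMA1 and PSMD14 intron signal over input and a lower level of the counted gene went together. Other members were mixed in vehicle cells: PSMB7 (9 intron peaks of 13) was at 0.997 and PSMD1 (9 of 19) at 1.83. PSMF1 (9 of 12) was at −0.08 and PSMD5 (3 of 4) at −1.61. A PSMG4 peak of 12.7-fold annotated to an exon (chr6:3289999-3290845) in the authors' deposited table lies outside the RefSeq gene of that name, which ends at 3268049. So do the 5 vehicle intron peaks annotated to PSMG4 and its 1 lactate peak. How far the counted gene reaches is not given in these sources.

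**Figure D4:**
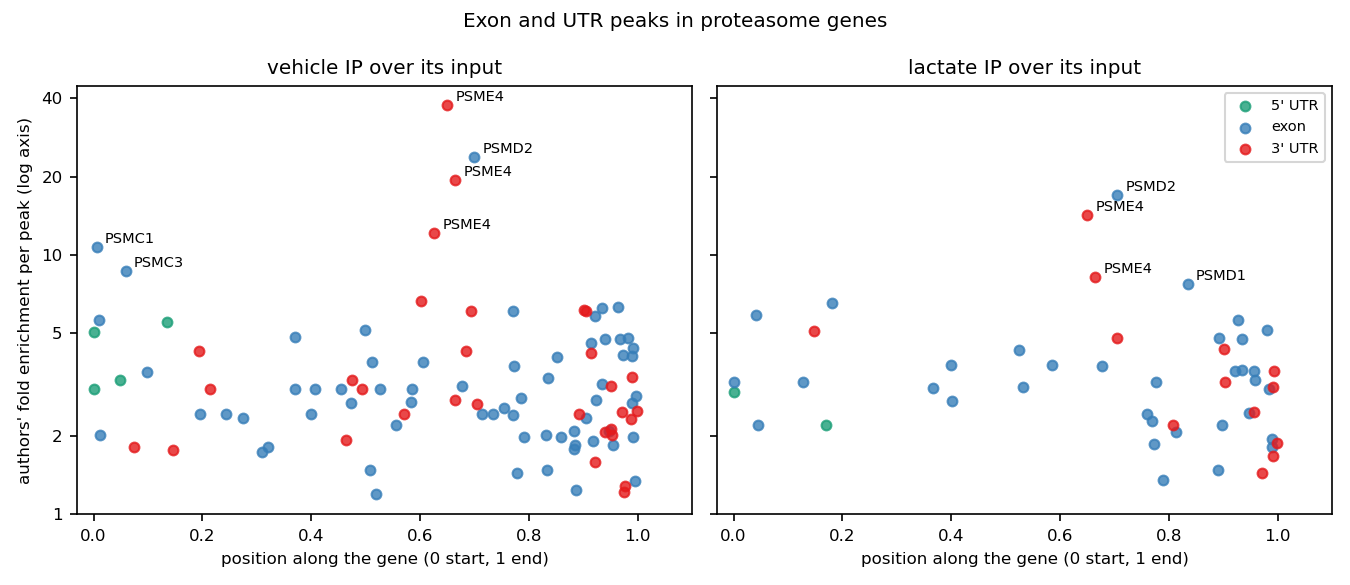
Points are exon and UTR peaks in members, 100 in the vehicle and 49 in the lactate list that lie inside the RefSeq gene, by position of the peak's middle along the gene (0 at its start, 1 at its end) and the authors' fold enrichment on a log axis. Peaks of PSME4 and PSMD2 near 0.65 and 0.70 of the gene are the highest.

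Along the gene, 51 of 100 exon and UTR peaks in the vehicle list (51%) and 30 of 49 in the lactate list (61.2%) lay in the last 25% of the member's RefSeq interval. Over protein-coding genes these shares were 52.1% and 58.8%. The first 25% held 15% and 16.3% of member peaks, against 13.4% and 10.5%.

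Peaks of the lists overlapped in part. By at least 1 base, 74 of the 209 vehicle peaks (35.4%) met a lactate peak and 77 of the 104 lactate peaks (74.0%) met a vehicle peak, against 29.8% and 58.3% over protein-coding genes. Among peaks with q under 0.05 in both lists these shares were 49.2% of 118 and 89.5% of 57. In the authors' deposited table of the IP libraries, which gives M as the log2 ratio of normalized density in lactate over vehicle, the 236 regions in members had a median M of −0.47, and all 116484 regions −0.50. For regions in both lists the medians were −0.06 over 74 in members and 0.00 over 26381. Among regions with a mean log2 density of at least 5, the median M was −0.18 over 49 in members, with 39 below 0. Over all 7056 such regions it was −0.05, with 3817 below 0. The part of the density normalization in these medians was not tested. The densest member region, in PSMC4 (chr19:39980255-39980819), had densities of 886 in the vehicle and 785 in the lactate IP in that authors' deposited table. PSMD11, a lid subunit, had a region (chr17:32480580-32480972) with 312 and 463, and PSMB4 one (chr1:151401300-151401873) with 404 and 269. Those of PSMD11 and PSMB4 stood on opposite sides of 0, at M of 0.57 and −0.59.

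Partners of the proteasome, a list of 30 ubiquitin shuttles, receptors, deubiquitinases, assembly factors and regulators, were measured in the same way. In the inputs 1 of 25 tested was 2-fold lower and 0 higher (6.46% and 1.76% of all genes), with a median of −0.57. ZFAND2A, a proteasome-associated stress protein, was lowest at −1.05 (FPKM 2.78 to 0.823). In the vehicle IP 9 of 29 were 2-fold higher and 6 lower (27.6% and 15.3% of all genes), and in the lactate IP 4 of 27 and 7 (16% and 23.3%). NFE2L1, the transcription factor of proteasome genes, was the most enriched of the list in both, at 2.19 and 1.89, with FPKM 4.18, 22.6, 2.49 and 12.0. Both its IP values exceeded both its input values. Lowest were UBB, a polyubiquitin gene, at −2.20 in vehicle cells, and UCHL5, a deubiquitinase of the base, at −1.92 in lactate cells. The change in enrichment ran from −0.93 for UBQLN4 to 0.88 for UBQLN2, both ubiquitin shuttles, with 0 of 29 past 2-fold (3.04% of all genes higher and 9.56% lower). Its median was −0.29.

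Other large complexes were set beside the proteasome with the same measure. In the inputs the median was −0.75 for the chaperonin CCT (8 tested), −0.55 for the COP9 signalosome (8) and −0.68 for eIF3 (10), a range that includes the proteasome's −0.65. Past 2-fold lower in the inputs were 0 CCT, 1 COP9 and 0 eIF3 genes, against 6.46% of all genes and 3.08% of nuclear protein-coding genes. With 8 to 10 genes per complex these counts are too small to compare. In the vehicle IP the medians were 0.60, 0.04 and 0.41, and in the lactate IP −0.15, 0.02 and 0.05. Within eIF3, as within the proteasome, values in the vehicle IP lay far apart, from 2.46 for EIF3A to −2.50 for EIF3E. The change in enrichment was −0.46 for CCT, −0.37 for COP9 and −0.61 for eIF3, beside −0.35 for proteasome genes.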

How the data were processed

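RNA from 4 libraries was compared, an input and an NSUN2 IP from vehicle and from lactate cells. The members and all gene lists were chosen with earlier results of these data known. The submitters' processing notes name HISAT2 (2.1.0) and fastp (0.20.1) beside the peak tools MACS2 (2.2.7.1), HOMER (4.11.1), DiffBind and bedtools (2.29.2), and the build GRCh38. Which counter and annotation were used, and whether strand was read, is not given in these sources. Gene values were deposited by the authors as FPKM. The deposited peak lists hold, per the file headers, a q-value and a p-value per peak, their −log10 values, and the fold over input as a ratio. The deposited comparison of the IP libraries gives normalized density as a signal, log2 values M and A, and a column headed P, a score of unstated kind that was not used.

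The whole-number read counts that underlie FPKM were recovered from ratios of each gene's values between libraries, for 24483 of 24483 genes. The tolerance was 1e-06 reads, and wider for very abundant genes that the first search did not resolve. A factor common to a gene's 4 values is lost. Recovery was tested on simulated data that left out the most abundant genes. A gene entered a comparison if any library compared had FPKM of 1 or more, as log2 ratios of FPKM + 1, and a ratio of 1 or −1 was the 2-fold threshold. Counting intervals (95%) are exact binomial on the reads of both libraries, without a pseudocount, and for the difference of enrichments a normal approximation. Peak starts are given 1-based. Named were the 3 highest and 3 lowest members of each comparison, the catalytic and immune beta subunits, PSMD14, and the ends of the partner list, 1 of which is not reported here; genes beyond these (such as PSMA1, PSMC4, PSMD13 and those at peaks) were chosen after their values were seen. Alternatives were pseudocounts, filters, scalings, recovered reads, reduced lists and stricter peaks; motif shares by window were added after seeing the data. Python 3.11.15, numpy 2.4.6, pandas 2.3.3, scipy 1.17.1 and matplotlib 3.10.9 were used.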

Additional observations from a re-analysis of the deposited data

Results flagged for a closer look

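PSMB10, the immune catalytic subunit not among the genes measured above, had an exon peak of 5.83-fold over input (chr16:67935412-67935637, q = 0.000119) in the authors' deposited table for lactate cells. It is listed because the peak lists hold a signal for a gene outside the gene comparisons. In the authors' deposited table for vehicle cells 1 peak overlapping the same RefSeq gene (chr16:67934379-67934774) was 2.97-fold and carried the identifier ENSG00000261884, a protein-coding gene given without a symbol. Whether the vehicle and lactate signals at this locus differ was not tested.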

How the results depend on the processing

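No paired analysis was possible because each group has 1 library and the labels carry no shared replicate numbers. For lactate over vehicle input, the members past 2-fold numbered 12 with a pseudocount of 0.1 or with recovered reads, 1 with a pseudocount of 5, and 0 under either rescaling. For the change in enrichment they numbered 3 with a pseudocount of 0.1 or with recovered reads. With a pseudocount of 5 there were 8 for the vehicle IP and 4 for the lactate IP, and with equal coding sums 20 for the lactate IP. The shares of all genes past 2-fold under these alternatives were not calculated, so the counts have no background beside them. With no minimum, members minus all genes was −0.48 in the inputs, 0.00059 in the vehicle IP and −0.25 for the change, and core minus regulatory 0.20 in the lactate IP. At FPKM of at least 5, members minus all genes was 0.25 in the vehicle IP and 0.63 in the lactate IP, and core minus regulatory −0.50 and −0.70. Without the assembly chaperones, core minus regulatory was −0.52 and −0.67. For the change, members minus all genes was −0.011 with a pseudocount of 5 and −0.00091 against nuclear protein-coding genes, and core minus regulatory −0.064 with a pseudocount of 5. Peaks of at least 5-fold left 12 and 10 members. The cause of these shifts was not tested. The other 76 values of these results kept their direction and moved by less than the members' median counting half-width, or, for counts, by at most 1.5 times. Of the recalculated log2 ratios of named members, 97 moved by at least the gene's own counting half-width and 128 by less. None of those past 2-fold changed sign. With 0 to 15 reads, PSMA2, PSMA6 and PSMD9 were too shallow for any comparison, and leaving out a library was not possible with 1 per group.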
